A study of Mus musculus and Homo sapiens with 43 samples.

Results

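When mouse embryonic stem cells leave the naive state, some transcripts are high for a few days of aggregate culture and low before and after. In these data 65 genes of the 35245 listed had such a peak on day 3 of aggregate culture. They were chosen from wild-type (WT) libraries by a rule on their levels in TPM, a level per library total that is corrected for transcript length. A member had at least 10 TPM in both embryoid body (EB) day 3 libraries, and the lower of these was at least 3 times the highest value in any WT library of the other stages. Another 5 genes that met these limits (Fgf5, Fgf8, Foxi3, Gm13323 and Gm18363) were left out because of their names. The peak in WT is therefore how the genes were chosen and not a result, while the levels in Pcgf2 KO cells were not used in the choice.

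RNA-seq was done on E14, a mouse embryonic stem cell (ESC) line, and on its differentiated progeny. The groups compared were WT and Pcgf2 KO, an E14 derivative in which Pcgf2 was targeted with CRISPR/Cas9, each as ESC, EB day 3, EB day 8 and neural progenitor cells (NPC), with 2 libraries per group and 16 in all. All groups shared a serum medium; ESC were given LIF at 0.003 µg/mL, the MEK inhibitor PD0325901 at 1 µM and the GSK3 inhibitor CHIR99021 at 3 µM, EB were grown without these, and NPC came from aggregates treated with 5 µM retinoic acid from day 4 to day 8. Phc1 KO and Phc1-SAM KO cells, 2 libraries each, were measured as ESC and NPC only, in a separate table. How many clones stand behind a group is not given in the sources used here, nor is it said that libraries came from separate cultures, so p values measure the spread between these libraries.

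As background, cells released from LIF and both inhibitors pass from naive to formative pluripotency, the state of the early post-implantation epiblast, before they choose a germ layer. Transcription factors such as Otx2 and Pou3f1 (Oct6) and the DNA methyltransferase Dnmt3b mark this state, which embryoid bodies reach after a few days. The epiblast is also an epithelium, with adhesion molecules and polarised membrane traffic. Pcgf2 (Mel18) is a subunit of canonical Polycomb repressive complex 1, which keeps developmental genes silent.

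Promoters are shown for 6 members that carry the comparisons below: the 3 with the sharpest WT peak (Pim2, Kcnj3 and Slc27a2), the most abundant (Dnmt3b), the factor with the largest EB day 8 difference (Otx2) and the epithelial gene with the largest NPC rise in Pcgf2 KO (Bspry). Each runs from 250 bases before to 50 bases after an annotated start in RefSeq (GRCm38.p6), in the direction of the gene. Capitals mark 6 motifs found on either strand, and adjacent or overlapping matches run together. The box of the SP and KLF zinc-finger factors was searched as GGGCGG. The box of NF-Y was searched as CCAAT. For the octamer bound by POU factors the letters were ATGCAAAT. For OTX factors the letters were GGATTA. For the TCF/LEF factors of the Wnt pathway the letters were CTTTGAT. For the TATA box, a core promoter element, the letters were TATAAA.
Pim2, chrX:7878056-7878355, plus strand: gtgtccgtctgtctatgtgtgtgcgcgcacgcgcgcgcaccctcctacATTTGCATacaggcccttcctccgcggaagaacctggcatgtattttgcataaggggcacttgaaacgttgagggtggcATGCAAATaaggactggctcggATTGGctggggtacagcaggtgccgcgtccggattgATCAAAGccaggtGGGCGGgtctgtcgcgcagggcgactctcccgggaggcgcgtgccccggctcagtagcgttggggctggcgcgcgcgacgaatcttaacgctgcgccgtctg
Kcnj3, chr2:55435720-55436019, plus strand: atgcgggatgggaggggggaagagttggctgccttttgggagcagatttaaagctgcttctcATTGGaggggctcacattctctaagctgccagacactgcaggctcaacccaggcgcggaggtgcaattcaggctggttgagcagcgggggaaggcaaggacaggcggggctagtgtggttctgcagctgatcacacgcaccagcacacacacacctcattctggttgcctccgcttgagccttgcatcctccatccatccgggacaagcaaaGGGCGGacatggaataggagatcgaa
Slc27a2, chr2:126552774-126553073, plus strand: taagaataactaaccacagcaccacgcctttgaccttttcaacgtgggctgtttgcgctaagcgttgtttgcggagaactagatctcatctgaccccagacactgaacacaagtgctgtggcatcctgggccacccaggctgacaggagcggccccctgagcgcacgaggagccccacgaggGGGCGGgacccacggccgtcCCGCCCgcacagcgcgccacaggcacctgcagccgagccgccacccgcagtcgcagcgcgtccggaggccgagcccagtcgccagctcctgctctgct
Dnmt3b, chr2:153649199-153649498, plus strand: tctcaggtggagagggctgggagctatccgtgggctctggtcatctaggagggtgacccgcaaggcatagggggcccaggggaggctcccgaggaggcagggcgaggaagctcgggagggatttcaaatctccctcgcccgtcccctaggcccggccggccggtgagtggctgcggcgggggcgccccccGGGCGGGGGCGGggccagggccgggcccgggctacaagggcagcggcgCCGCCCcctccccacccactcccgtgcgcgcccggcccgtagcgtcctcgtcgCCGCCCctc
Otx2, chr14:48665060-48665359, minus strand, 1 of 4 annotated starts: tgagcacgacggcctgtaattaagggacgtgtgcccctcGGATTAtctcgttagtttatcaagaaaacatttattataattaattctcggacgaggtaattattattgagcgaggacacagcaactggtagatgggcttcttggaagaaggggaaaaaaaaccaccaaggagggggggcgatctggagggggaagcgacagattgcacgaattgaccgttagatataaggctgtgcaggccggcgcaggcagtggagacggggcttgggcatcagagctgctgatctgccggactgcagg
Bspry, chr4:62479812-62480111, plus strand: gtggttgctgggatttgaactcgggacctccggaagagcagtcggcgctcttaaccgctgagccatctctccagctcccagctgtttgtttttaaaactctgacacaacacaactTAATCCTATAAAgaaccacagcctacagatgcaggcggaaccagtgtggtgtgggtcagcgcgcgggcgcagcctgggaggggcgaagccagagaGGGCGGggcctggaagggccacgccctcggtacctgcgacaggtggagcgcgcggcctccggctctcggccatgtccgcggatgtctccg
The Pim2 promoter holds 2 octamers, and it was the only one of the 70 member promoters with the TCF/LEF letters. Those letters were in 1.43% of member promoters and 3.73% of all promoters, and the octamer in 2.86% and 1.74%. Letters searched but not marked were those of FOXH1 (4.29% and 3.6%), of T-box factors (0% and 1.28%) and of the retinoic acid receptor (0% and 0.00913%). The Otx2 start shown held the OTX letters, while the other annotated Otx2 starts did not. Promoters were found for 49 of the 65 members. The SP/KLF box was in 51.4% of member promoters and in 35.7% of the 32851 promoters of all genes, CCAAT in 25.7% and 37.4%, TATA in 11.4% and 13.6%, and the OTX letters in 7.14% and 7.06%. Member promoters had a median GC content of 58.3% and a median of 12 CpG per 300 bases, against 52.7% and 7 over all promoters. These shares describe letters in a window and do not show binding.

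The members took up 0.61% and 0.66% of all transcripts in the WT EB day 3 libraries and 0.0595% to 0.0915% at the other WT stages. In TPM their sum was 6115 and 6609 on WT EB day 3, 676 to 720 in ESC, 849 to 917 on EB day 8 and 595 to 610 in NPC. Mean levels on WT EB day 3 ran from 10.8 TPM for Rasd2 to 867 TPM for Dnmt3b, with a median of 45.9 TPM. The peak, as the lower EB day 3 value over the highest value elsewhere, had a median ratio of 4.26 and was 47.4 for Pim2, 37.8 for Kcnj3, 35.9 for Slc27a2, 29.1 for the membrane metalloprotease Mmp25, 19.9 for Pou3f1, 17.5 for both Otx2 and the insulin receptor substrate Irs4, 13.9 for Dnmt3b, 11.3 for Enpp3 and 10.8 for Ccdc194. At the limit of the rule, Cnksr3, Rragd and Rapgef5 (each 3.04) and Mfap3l (3.07) stood just inside, and Zfp738 (2.95), Mapk4 (2.93), Acsl4 (2.84) and Tmem145 (2.84) just outside.

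**Figure D1:**
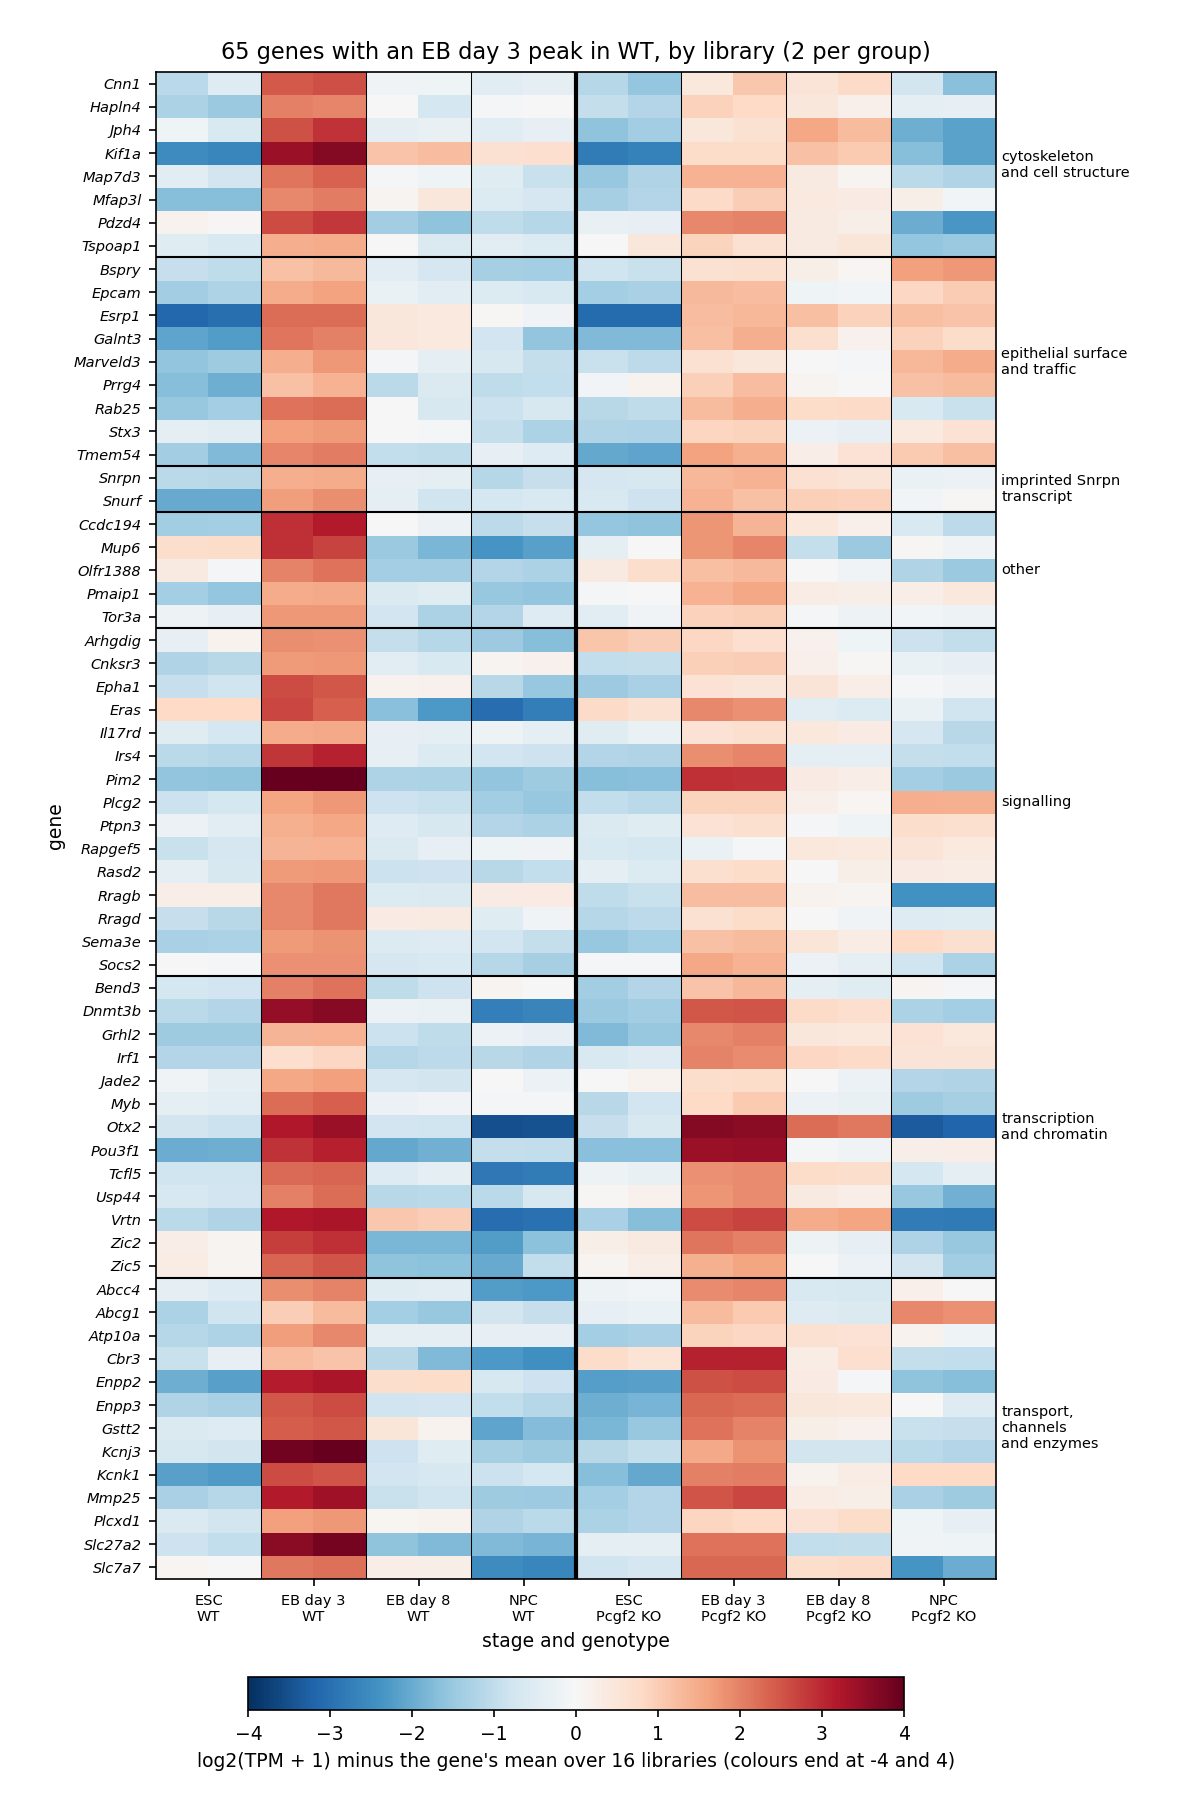
Level of each of the 65 genes (vertical axis, by role) in each of the 16 libraries (horizontal axis, WT left and Pcgf2 KO right), as log2(TPM + 1) minus the mean of that gene over all libraries. The WT EB day 3 columns are the highest WT columns in every row by the rule; in Pcgf2 KO the EB day 3 columns are paler in most rows, and 55 of 65 genes still have their highest mean there.

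Several facts of the libraries touch these values. Pcgf2 itself was not lost from the libraries labelled Pcgf2 KO (175 and 169 TPM on EB day 3 against 102 and 111 TPM in WT), and gene totals cannot show a small deletion. A transcript of the Y chromosome, Eif2s3y, chosen after its values were seen, differed between genotypes at 3 stages and was not called on EB day 8 (adjusted p = 0.28): it stood at 0.422 to 2.78 TPM in the WT ESC, EB day 3 and NPC libraries, at 50.4 and 64.7 TPM on WT EB day 8, and at 45.7 to 76.1 TPM in every Pcgf2 KO library. Ddx3y and Uty were likewise at 11.3 and 12 TPM and at 9.39 and 10.8 TPM on WT EB day 8, against 0.194 to 1.02 and 0.654 to 1.75 TPM at the other WT stages. Whether the libraries labelled WT EB day 8 came from the same WT cells as the other WT libraries, or carry another label than their own, is not given in the sources used here. Every EB day 8 difference between WT and Pcgf2 KO below rests on these 2 libraries, and none can be given without them. In ESC, on EB day 3 and in NPC, Eif2s3y, Ddx3y and Uty were higher in Pcgf2 KO (log2 difference 4.01, 3.95 and 3.08 on EB day 3). At these stages a difference in cell stock or clone between the genotypes cannot be told apart from the loss of Pcgf2. The WT EB day 8 columns take part in the rule; without them it chose 93 genes. Markers of the stages were present, but the libraries labelled NPC Pcgf2 KO had 64 to 66.2 TPM summed over 10 neural markers against 479 to 663 TPM in WT NPC. Libraries listed 13131 to 15374 genes at 1 TPM or more, Pearson's r across genes between the replicates of a group was 0.9878 to 0.9916, and TPM hold no sequencing depth, which is unknown.

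Whether the day 3 rise also took place without Pcgf2 was read within the Pcgf2 KO libraries, which the rule did not use. From ESC to EB day 3, 64 of the 65 members rose (98.5%) and none fell, where 19.2% of all 17938 genes tested rose and 27% fell (limma on log2(TPM + 1), Benjamini-Hochberg adjusted p under 0.05). The median log2 change was 2.10 over the members and -0.05 over all genes. Another 478 genes had 10 TPM or more on WT EB day 3 and were 3-fold above WT ESC without being members. Of these 85.1% rose in Pcgf2 KO as well, with a median of 1.14, so a rise without Pcgf2 was not particular to the members. The sum of their TPM went from 765 and 799 in Pcgf2 KO ESC to 4093 and 4052 on day 3. By role, all 13 genes of transcription and chromatin rose, as did all 13 of transport and enzymes, all 9 epithelial genes, all 8 of the cytoskeleton, all 7 of the Snrpn transcript and of other roles, and 14 of 15 signalling genes.

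The exception was Arhgdig, at 11.5 and 10.5 TPM in Pcgf2 KO ESC and 9.35 and 8.34 TPM on EB day 3 (log2 change -0.29, adjusted p = 0.19), while in WT it stood at 3.65 and 5.38 TPM and then 20.1 and 19.7 TPM. The smallest called rises were those of the Rap exchange factor Rapgef5 (0.47), Tspoap1 (0.51), the PHD-finger protein gene Jade2 (0.63), Olfr1388 (0.71) and the FGF receptor antagonist Il17rd (0.97). Tspoap1 lost its call in 7 of the alternatives tried and Rapgef5 in 1. Olfr1388 and Mup6 belong to large families of similar genes, and Snrpn and Snurf share a transcript, so reads of these could be split or shared.

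From the day 3 peak to the later stages most members were also lower again in Pcgf2 KO. EB day 3 was above EB day 8 for 55 of 65 members (84.6%, against 15.7% of all genes tested) and above NPC for 56 (86.2%, against 16.4%). Jph4, Kif1a and Rapgef5 were higher on EB day 8 than on day 3 (4.62% of members, 43% of all genes), and Abcg1, Bspry, Marveld3, Plcg2 and Rapgef5 were higher in NPC than on day 3 (7.69%, 49.2% of all genes). Highest means lay on EB day 3 for 55 members, in NPC for 7 (Abcg1, Bspry, Marveld3, Plcg2, Prrg4, Ptpn3 and Rapgef5), on EB day 8 for Jph4 and Kif1a and in ESC for Arhgdig.

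A peak that met the full rule in the Pcgf2 KO columns was kept by 13 members, which is 20% of the WT list and 50% of the 26 genes that met it in Pcgf2 KO; 0.145% of all genes tested met it. These were Abcc4, Cbr3, Dnmt3b, Enpp2, Enpp3, Gstt2, Mmp25, Mup6, Pdzd4, Pim2, Pou3f1, Slc27a2 and Zic2. Of the other 52, 15 were under 10 TPM in a Pcgf2 KO day 3 library and 37 passed that level but not the 3-fold limit. The share kept was 19.8% for genes with a peak in WT ESC, 27.1% for those of EB day 8 and 9.32% for those of NPC, so a loss of this extent was not seen for EB day 3 alone. The 13 genes that met the rule in Pcgf2 KO but not in WT included Lefty1, an inhibitor of Nodal (mean of 135 ± 22 TPM in WT on day 3 against 232 ± 25 TPM in Pcgf2 KO, SD, n = 2), and Tcf15, a factor of the primed epiblast (20.4 and 17.5 against 53.5 and 47.7 TPM).

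The height of the peak was then compared between genotypes. On EB day 3, 51 of the 65 members were lower in Pcgf2 KO than in WT (78.5%, against 31.9% of all genes tested) and 4 were higher (6.15%, against 16.7%), with a median log2 difference of -0.78 against -0.11 over all genes. Median-of-ratios scaling, which set the median of all genes to 0.00, left 44 members lower and 6 higher with a median of -0.63. Both Pcgf2 KO libraries lay below both WT libraries for 55 members (84.6%, against 46.4% of all genes) and above both for 6 (9.23%, against 28.3%). Pcgf2 KO held 13.1% to 392% of the WT level, with a median of 57.4%. Since WT values chose the members, the choice favours lower values in Pcgf2 KO on this day and higher values at other stages, and these counts are a description.

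Genes high on WT EB day 3 that did not meet the limits against EB day 8 or NPC showed a share of similar size. Of the 478 genes at 10 TPM or more on EB day 3 and 3-fold above WT ESC that were not members, 83.3% were lower in Pcgf2 KO on day 3, with a median log2 difference of -0.94. Among all 8264 genes at 10 TPM or more in both WT EB day 3 libraries the share was 50.6% and the median -0.28. All 6 members on the X chromosome (Eras, Irs4, Map7d3, Pdzd4, Pim2 and Rragb) were lower, as were 45 of the 59 others (76.3%), beside 60.1% of the 258 X-linked genes at that level. Naive pluripotency markers stood higher in the same libraries: over 18 markers, none of them at 0, the summed level was 358 to 364 TPM in WT and 1037 to 1091 TPM in Pcgf2 KO on day 3, and 16 of 18 were called higher and 1 lower. Over all genes tested 16.7% were higher and 31.9% lower. Markers of 2-cell-like cells summed to 0.375 to 1.22 TPM over 8 genes in WT, with Zfp352, Tdpoz4 and Tcstv3 at 0, and to 56.1 to 59 TPM in Pcgf2 KO, and 8 germ cell markers to 19.5 to 21.5 and 68.8 to 70 TPM. Their part in the lower member levels was not tested. In bulk RNA, fewer cells with a transcript and less transcript per cell cannot be told apart.

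**Figure D2:**
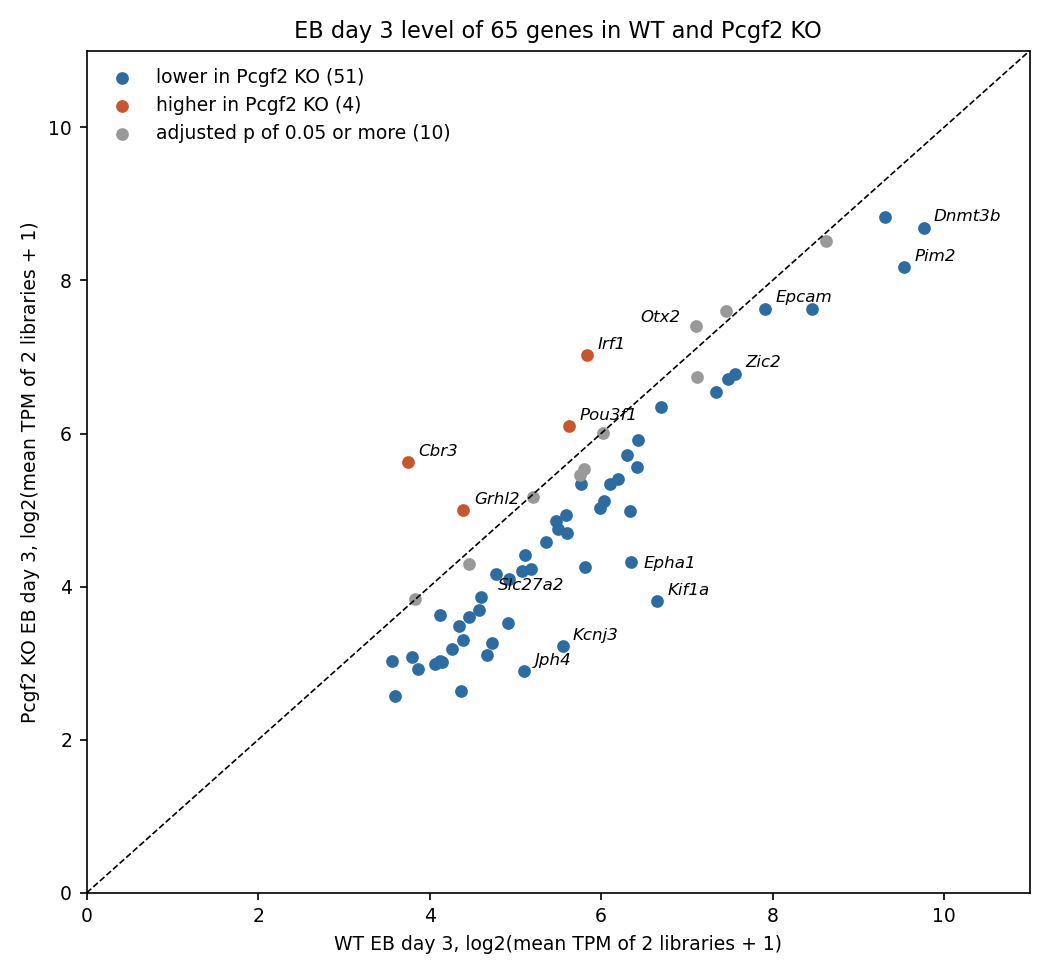
EB day 3 level of the 65 genes in WT (horizontal axis) and Pcgf2 KO (vertical axis), each point the log2 of the mean TPM of 2 libraries plus 1, with the dashed line at equal levels. Blue marks the 51 genes called lower in Pcgf2 KO, orange the 4 called higher and grey the 10 with an adjusted p of 0.05 or more; Kif1a, Kcnj3 and Jph4 lie farthest below the line and Cbr3 farthest above it.

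Among the transcription and chromatin genes, 8 of 13 were lower in Pcgf2 KO on EB day 3 and 3 were higher. Over all genes tested 31.9% were lower and 16.7% higher. Among genes at 10 TPM or more on WT EB day 3, 50.6% were lower, so these counts do not set the role apart. Dnmt3b, one of the enzymes that methylate DNA anew as cells leave the naive state, was at 838 and 895 TPM in WT libraries and 410 and 415 TPM in Pcgf2 KO (47.6% of WT, log2 difference -1.07 ± 0.07 SE, adjusted p = 3.4e-07). It was thus lower in both Pcgf2 KO libraries, but it had risen from 25.1 and 26.9 TPM in Pcgf2 KO ESC and kept its peak. Zic2, a zinc-finger factor, was at 177 and 199 TPM in WT libraries and 114 and 104 TPM in Pcgf2 KO (log2 difference -0.78, adjusted p = 0.0021). Its neighbour Zic5, 9726 bases away on chromosome 14, was at 60 and 69.6 against 31.9 and 35.6 TPM (log2 difference -0.92, adjusted p = 0.019, a call lost on leaving out WT replicate 2 or either Pcgf2 KO replicate). Myb, a regulator of progenitor growth best known from blood, was at 27.5 and 30.9 against 9.55 and 11.4 TPM (log2 difference -1.40).

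Otx2, Pou3f1, Grhl2 and Irf1 stood higher in Pcgf2 KO, against the direction of most members. Otx2, a homeodomain factor of the formative epiblast, was at 125 and 150 TPM in WT libraries and 172 and 164 TPM in Pcgf2 KO on EB day 3, without overlap, but the difference missed the threshold (log2 difference 0.30 ± 0.12 SE, adjusted p = 0.052). Pou3f1, a POU-domain factor of the same state, was at 44.5 and 52 TPM in WT libraries and 67.1 and 67.8 TPM in Pcgf2 KO (log2 difference 0.48, adjusted p = 0.0023). Grhl2, a factor that sustains epithelial genes, was at 19.9 and 20.2 against 30 and 32 TPM (log2 difference 0.61, adjusted p = 0.00085). Irf1, an interferon-response factor, was at 53.3 and 58.8 against 134 and 125 TPM (log2 difference 1.19, adjusted p = 3e-07). The deubiquitinase gene Usp44 was lower in both Pcgf2 KO libraries but not called (48.9 and 57.1 against 40.9 and 44.8 TPM, adjusted p = 0.15).

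On EB day 8 the difference between genotypes was larger than on day 3 for Otx2, Pou3f1, Irf1 and Grhl2. The limma contrast of both differences gave adjusted p = 1.3e-06, 3e-05, 0.00031 and 0.0027 in that order. It was called in the same direction for all 13 transcription and chromatin genes. Among all members it was so called for 59 (90.8%, against 26.2% of all genes tested), so it does not set these genes apart. The rule asked for high WT values on EB day 3 and low ones on EB day 8, which favours this direction. These p values are therefore a description. Otx2 on EB day 8 was at 7 and 6.84 TPM in WT and at 62.7 and 58.1 TPM in Pcgf2 KO. This log2 difference (2.95 ± 0.12 SE, adjusted p = 2.5e-08) was the largest between genotypes on that day among the members. Pou3f1 was at 0.493 and 0.626 TPM in WT libraries and 4.88 and 4.65 TPM in Pcgf2 KO (log2 difference 1.89), and Irf1 at 14.4 and 15.5 against 59.7 and 56.5 TPM (log2 difference 1.89). In NPC Otx2 was low in both genotypes, at 0.182 and 0.219 TPM in WT libraries and 0.354 and 0.528 TPM in Pcgf2 KO.

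**Figure D3:**
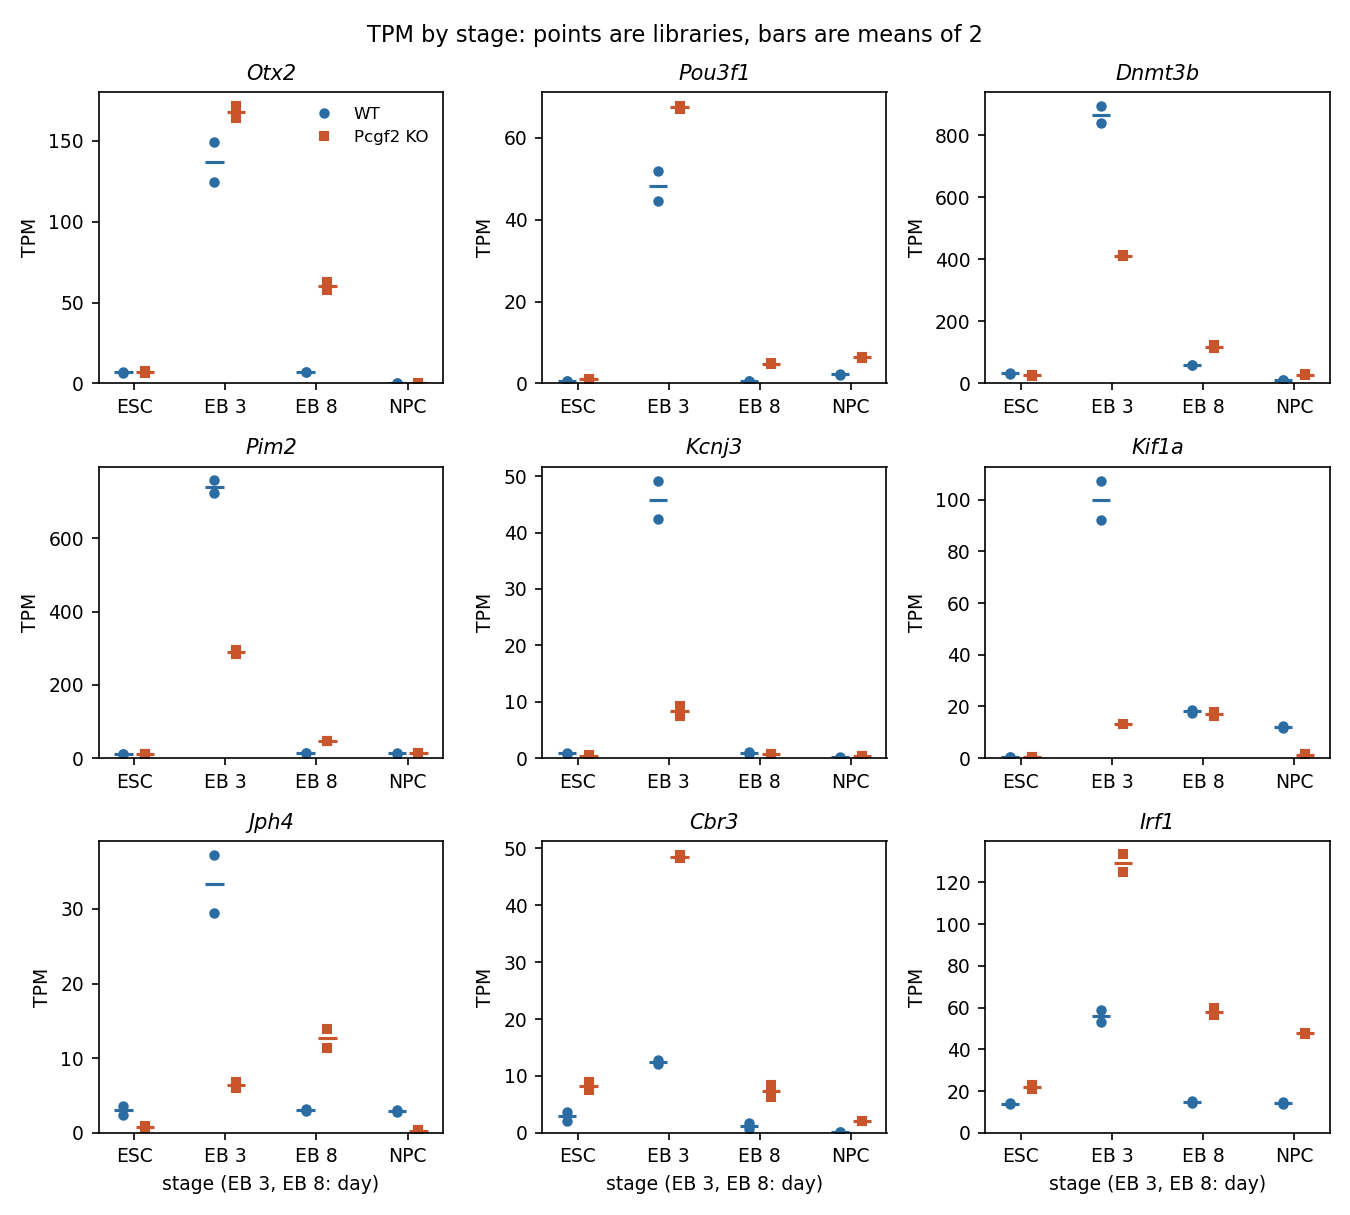
TPM (vertical axis, from 0) of 9 genes at 4 stages (horizontal axis) in WT (circles) and Pcgf2 KO (squares); points are single libraries and bars the mean of 2. On EB day 3 the Pcgf2 KO libraries lie below WT for Dnmt3b, Pim2, Kcnj3, Kif1a and Jph4 and above WT for Pou3f1, Cbr3 and Irf1, and on EB day 8 Otx2 stands at 62.7 and 58.1 TPM in Pcgf2 KO and at 7 TPM or less in WT.

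All 15 signalling genes were lower in Pcgf2 KO on EB day 3, with 23.6% to 77.8% of the WT level. Over all genes tested 31.9% were lower, and 83.3% of the 478 genes 3-fold above WT ESC on day 3 that were not members. Pim2, a serine/threonine kinase that favours cell survival, was at 724 and 758 TPM in WT libraries and 294 and 283 TPM in Pcgf2 KO (38.9% of WT, log2 difference -1.36 ± 0.07 SE, adjusted p = 8.9e-08). In ESC no difference was called (adjusted p = 0.29), and the rise to day 3 was smaller in Pcgf2 KO by a log2 contrast of -1.26 (adjusted p = 5.9e-06). Eras, a Ras-family gene of stem cells 40844 bases from Pim2 on the X chromosome, was at 51.7 and 43 against 30.4 and 28.7 TPM (log2 difference -0.66, adjusted p = 0.025), a call lost in 6 alternatives.

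The ephrin receptor gene Epha1 was at 83.9 and 77.4 TPM in WT libraries and 19.8 and 18.3 TPM in Pcgf2 KO (log2 difference -2.03, adjusted p = 4.5e-07). Rapgef5 was at 24.2 and 24.8 against 7.09 and 8.19 TPM (log2 difference -1.56), beside 5.43 and 5.05 TPM in Pcgf2 KO ESC. Rragd and Rragb, GTPases that pass amino acid signals to mTORC1, were lower too: Rragd at 74.9 and 84.9 against 29.3 and 32.2 TPM and Rragb at 67.7 and 77.5 against 41.7 and 41.3 TPM. Socs2, a feedback inhibitor of cytokine signalling, was at 103 and 104 against 83.9 and 76.5 TPM and lost its call in 7 alternatives. The feedback antagonist Il17rd was at 46.9 and 47.9 against 24.5 and 25.7 TPM (log2 difference -0.89).

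The cytoskeleton and cell structure genes included Kif1a and Jph4, which with Kcnj3 had the 3 largest falls among the members. All 8 were lower on EB day 3, at 13.1% to 58.7% of WT, where 31.9% of all genes tested were lower. Among the 478 genes 3-fold above WT ESC on day 3 that were not members, 83.3% were lower. Kif1a, a kinesin that carries synaptic vesicle precursors along axons, was at 92.1 and 107 TPM in WT libraries and 13.1 and 13 TPM in Pcgf2 KO (log2 difference -2.84 ± 0.14 SE, adjusted p = 5.9e-08), after 0.209 to 0.485 TPM in ESC of both genotypes. On EB day 8 it was at 17.5 and 18.7 TPM in WT libraries and 18 and 16.4 TPM in Pcgf2 KO, where the libraries overlapped. Jph4, a junctophilin that ties the plasma membrane to the endoplasmic reticulum, was at 29.5 and 37.2 against 6 and 6.88 TPM on day 3 (log2 difference -2.20). On EB day 8 its order was the opposite, at 2.93 and 3.23 TPM in WT libraries and 14 and 11.4 TPM in Pcgf2 KO (log2 difference 1.74, adjusted p = 1.9e-05). Calponin 1 (Cnn1), an actin-binding protein best known from smooth muscle, was at 18.8 and 20.5 against 3.82 and 6.64 TPM on day 3 (log2 difference -1.76).

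Transport, channel and enzyme genes were mixed, with 7 of 13 lower and 1 higher, a share of lower genes near the 50.6% of all genes at 10 TPM or more on WT EB day 3. Kcnj3, a subunit of G protein-gated inward rectifier potassium channels, was at 42.5 and 49.2 TPM in WT libraries and 7.44 and 9.25 TPM in Pcgf2 KO on EB day 3 (log2 difference -2.33 ± 0.15 SE, adjusted p = 4.7e-07). It was at 1.12 TPM or less at every other stage in both genotypes. Slc27a2, a fatty acid transporter and acyl-CoA synthetase, was at 50.5 and 59.9 against 18.1 and 18.2 TPM (log2 difference -1.55), and Mmp25 at 30.6 and 36.4 against 19.4 and 21.4 TPM (log2 difference -0.69).

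Cbr3, a carbonyl reductase, ran the other way, at 12.7 and 12.1 TPM in WT libraries and 48.3 and 48.8 TPM in Pcgf2 KO (392% of WT, log2 difference 1.89 ± 0.22 SE, adjusted p = 3.8e-05). Cbr3 was higher in Pcgf2 KO at each of the 4 stages. The amino acid exchanger subunit gene Slc7a7 (168 and 180 against 191 and 194 TPM, adjusted p = 0.28) and the transporters Abcc4 (61.1 and 66.6 against 62.1 and 64.6 TPM, adjusted p = 0.95) and Abcg1 (11.8 and 14.5 against 14.4 and 12.3 TPM, adjusted p = 0.94) were not called. The nucleotide pyrophosphatase gene Enpp3 was at 52.3 and 57.4 against 46.4 and 44 TPM, without a call (adjusted p = 0.15), and its relative Enpp2 (autotaxin) at 41.5 and 45.6 against 27.5 and 28.7 TPM (adjusted p = 0.0048). Pmaip1 (Noxa), a p53 target that promotes cell death, stood at 35.1 and 36.5 against 33 and 37.1 TPM on day 3 (adjusted p = 0.83), but at 4.06 and 3.43 against 11.4 and 11.9 TPM in ESC (log2 difference 1.42, adjusted p = 1.4e-06).

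Of the 9 epithelial surface and traffic genes, 8 were lower in Pcgf2 KO on EB day 3 and 8 were higher in Pcgf2 KO NPC. Over all genes tested 31.9% were lower on EB day 3 and 31.5% higher in NPC. Of the 478 genes 3-fold above WT ESC on day 3 that were not members, 83.3% were lower on day 3. Over all 65 members 78.5% were lower on day 3 and 56.9% higher in NPC, so the day 3 count does not set the role apart. The day 3 calls of Galnt3 and Tmem54 were each lost in 5 alternatives. Epcam, an adhesion molecule of epithelia, was at 230 and 249 against 199 and 195 TPM on day 3 (log2 difference -0.28, adjusted p = 0.014, a call lost in 4 alternatives) and at 54.9 and 53.5 against 146 and 166 TPM in NPC (log2 difference 1.5 ± 0.08 SE, adjusted p = 1.5e-08). Bspry was at 25.2 and 27.6 against 16.9 and 16.9 TPM on day 3 and at 3.61 and 3.49 against 34.8 and 37.3 TPM in NPC (log2 difference 3.02 ± 0.10 SE, adjusted p = 3.6e-10). The splicing regulator Esrp1, which sets epithelial splice forms, was at 62.5 and 62.5 against 30.4 and 32.8 TPM on day 3 and 12.9 and 11.3 against 30.1 and 28.4 TPM in NPC. Marveld3, a tight junction protein, was at 14.2 and 17.3 against 7.3 and 6.57 TPM and then at 2.49 and 1.85 against 12.8 and 14.3 TPM. Rab25, a GTPase of apical recycling, was lower on day 3 (28.7 and 30 against 15.1 and 17.1 TPM) but overlapped in NPC (2.67 and 3.3 against 3.4 and 2.6 TPM).

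**Figure D4:**
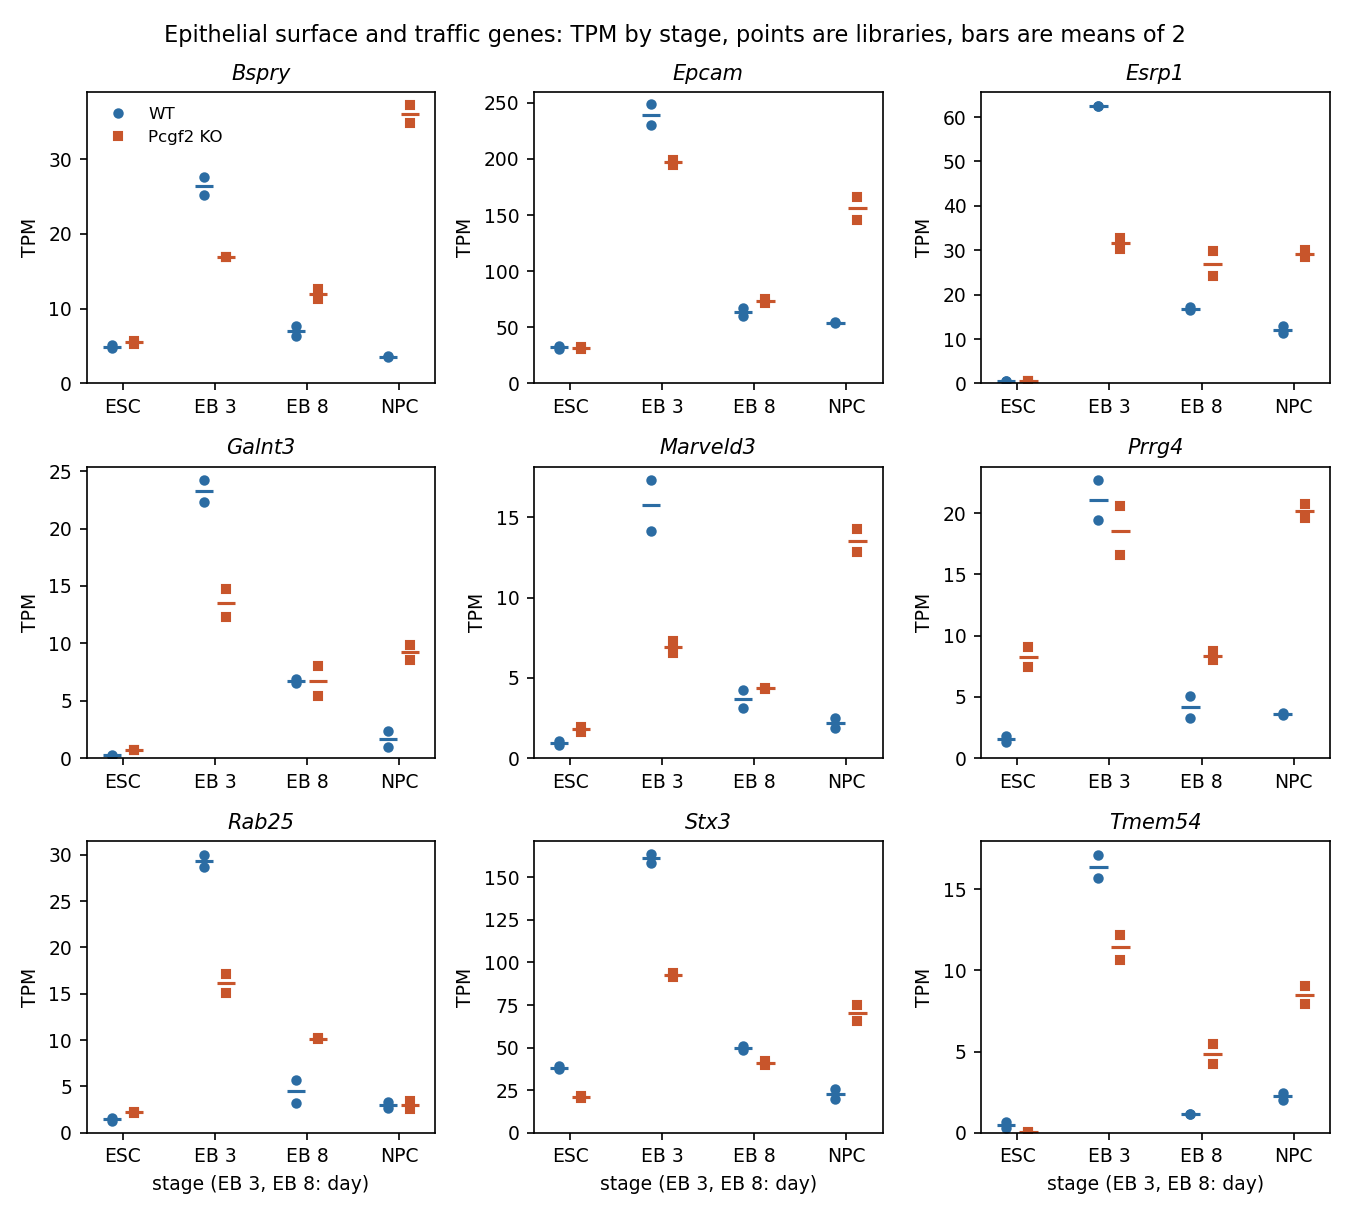
TPM (vertical axis, from 0) of the 9 epithelial surface and traffic genes at 4 stages (horizontal axis) in WT (circles) and Pcgf2 KO (squares); points are single libraries and bars the mean of 2. In NPC the Pcgf2 KO libraries lie above WT for every gene but Rab25, with Bspry at 34.8 and 37.3 TPM against 3.61 and 3.49 TPM.

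Some members outside the epithelial group were higher in Pcgf2 KO NPC as well. The cytoskeleton genes mostly went the other way, with 1 of 8 called higher and 6 lower. The counts that follow are over all 65 members, the epithelial genes included. Both Pcgf2 KO libraries lay above both WT libraries for 42 members (64.6%, against 39.2% of all genes tested), and 37 of 65 were called higher (56.9%, against 31.5% of all genes tested) and 13 lower (20%, against 34.7%). Phospholipase C gamma 2 (Plcg2) was at 7.3 and 6.64 TPM in WT libraries and 58.2 and 57.9 TPM in Pcgf2 KO (log2 difference 2.89, adjusted p = 1.3e-10), the cholesterol exporter Abcg1 at 2.9 and 2.42 against 23.7 and 21.7 TPM (adjusted p = 4.2e-08), and Eras at 0 and 0.215 against 5.98 and 3.8 TPM (adjusted p = 1.3e-06). The largest NPC fall among members was that of Rragb, from 21.7 and 21.6 to 2.38 and 2.4 TPM (log2 difference -2.74, adjusted p = 1.2e-10), followed by Kif1a from 11.7 and 12.3 to 1.57 and 0.891 TPM. In the same Pcgf2 KO NPC libraries 10 trophectoderm markers, an epithelial lineage, summed to 1501 to 1745 TPM against 161 to 163 TPM in WT, with 9 of 10 called higher. Naive markers summed to 1179 to 1299 against 93.3 to 101 TPM with 16 of 18 called higher, and 9 of 10 neural markers were called lower. The part of these markers in the member levels was not tested.

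In Phc1 KO and Phc1-SAM KO cells, mutated in another subunit of the complex, EB day 3 was not analysed here, and 64 of the 65 members could be read in ESC and NPC. These levels come from a table normalised on its own, whose WT columns were not used: they summed to 381098 to 502815 TPM, against 975902 to 980200 TPM for its Phc1-mutant columns, and each listed 14 to 20 of the 64 members at 0, Epcam among them. The levels are therefore set beside WT of the first table, without a test, and a difference between the tables cannot be told apart from one between genotypes. In NPC both libraries lay above both WT libraries for 39 members in Phc1 KO (60.9%, against 34% of 16781 genes) and for 38 in Phc1-SAM KO (59.4%, against 32.2%), beside 42 of the same 64 in Pcgf2 KO. Plcg2 was among them, at 29 and 30 TPM in Phc1 KO NPC and 23.6 and 24.9 TPM in Phc1-SAM KO NPC. Epcam stood at 67.1 and 64.5 TPM in Phc1 KO NPC and at 76 and 79.2 TPM in Phc1-SAM KO NPC, closer to WT (54.9 and 53.5 TPM) than to Pcgf2 KO (146 and 166 TPM). Bspry, too, was at 5.53 to 7.85 TPM in these 4 libraries. Irf1, by contrast, reached 56.1 and 63.6 TPM in Phc1 KO NPC and 59.7 and 61.3 TPM in Phc1-SAM KO NPC, above its WT NPC level of 14.8 and 13.9 TPM and at or above its mean on WT EB day 3. In ESC both libraries lay above both WT libraries for 28 members in Phc1 KO (43.8%, against 58.7% of 16781 genes). For Phc1-SAM KO ESC the number was 33 (51.6%, against 49.6%), so members did not exceed the share of all genes clearly in either. Cbr3 was at 18.4 to 22.2 TPM in the 4 Phc1-mutant ESC libraries, above its WT day 3 level, and at 0.612 to 2.84 TPM in NPC.

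The timing of the difference was examined with the ESC and EB day 8 levels. In ESC, before the rise, 18 members were higher in Pcgf2 KO (27.7%, against 24.9% of all genes) and 17 lower (26.2%, against 11%), with a median log2 difference of -0.03, where that of all genes was 0.10. This near-even split, with 51.4% of the called members higher, depended on the scaling: median-of-ratios scaling gave 13 higher and 21 lower (38.2% higher) and quantile normalization 10 and 26 (27.8% higher). On EB day 8, 47 were higher (72.3%, against 20.6%) and 3 lower (4.62%, against 17.1%), with a median of 0.80. In the same libraries 10 blood and endothelium markers summed to 3543 to 4131 TPM in WT and 299 to 321 TPM in Pcgf2 KO, with 6 called lower and 2 higher. Visceral endoderm markers summed to 1390 to 1414 against 384 to 411 TPM over 16 genes, with Rhox5 at 0 in both genotypes and 12 of the 14 tested called lower. Trophectoderm markers summed to 1240 to 1263 against 744 to 756 TPM, with 3 of 10 called lower and 2 higher, beside 17.1% and 20.6% of all genes tested. Naive markers summed to 345 to 347 against 639 to 687 TPM, with 14 of 18 called higher, and germ cell markers to 25.6 to 28.6 against 97.9 to 106 TPM, with 7 of 8 called higher. Their part in the EB day 8 member levels was not tested. Among the 478 WT risers that were not members, 17.2% were higher and 38.3% lower on EB day 8, but low WT values on that day were part of how members were chosen. The rise from ESC to EB day 3 was smaller in Pcgf2 KO than in WT for 40 members (61.5%, against 31.1% of all genes, by a contrast of the differences in the same fit) and larger for 5 (7.69%, against 8.54%), with a median contrast of -0.85 against -0.24 over all genes. With median-of-ratios scaling, where the median of all genes was 0.01, it was smaller for 34 and larger for 8 with a median of -0.55, and with quantile normalization smaller for 26 and larger for 9 with a median of -0.39. The drop from EB day 3 to EB day 8 was smaller in Pcgf2 KO for 59 members (90.8%, against 26.2%). Both contrasts rest on the WT libraries that chose the members. Pcgf2 KO members summed to 1731 and 1649 TPM on EB day 8, against 917 and 849 TPM in WT.

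Other genes of the formative state were read from a list of 21 genes in the table, 7 of them members (Otx2, Dnmt3b, Pou3f1, Zic2, Zic5, Pim2 and Grhl2). All 21 rose from ESC to EB day 3 within Pcgf2 KO, where 19.2% of all genes tested rose and 85.1% of the 478 WT risers that were not members. On EB day 3, 12 of 21 were lower in Pcgf2 KO than in WT and 6 higher, and of the 14 that were not members 8 were lower (57.1%) and 4 higher, a share near the 50.6% of all genes at 10 TPM or more on WT EB day 3. The summed level was 3340 to 3574 TPM in WT and 2263 to 2274 TPM in Pcgf2 KO. The 14 that were not members missed the 3-fold limit, with ratios of 0.0765 to 1.8 between the lower day 3 value and the highest value elsewhere in WT. The de novo methyltransferase Dnmt3a reached 160 TPM or more on day 3 but 141 TPM in NPC, and Utf1, a chromatin protein of pluripotent cells, 394 TPM or more on day 3 but 233 TPM in ESC. Lists of the Nodal pathway, primitive streak factors, Wnt targets and ERK targets held no member, and the p53 target list held Pmaip1.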

How the data were processed

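The authors deposited gene levels as TPM, and the submitters' processing notes name kallisto and mm10. Tool versions, the annotation and how transcripts were joined into genes were not found in the labels or file headers. TPM keep no counts, so depth is unknown and no counting interval can be given. Values were taken as log2(TPM + 1), and a fold change on this scale understates that of low genes. Genes with 1 TPM or more in at least 2 of the 16 libraries (17938, all 65 members among them) entered a two-sided limma fit (version 3.58.1, R 4.3.3; 1 mean per group, eBayes with trend). The Benjamini-Hochberg adjusted p, taken per comparison, had to be under 0.05. The fitting code was tested on simulated data.

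The members, gene lists, roles and tests were chosen with earlier results of these data known. Named genes were the members in a list, the 10 sharpest WT peaks, the 10 largest called falls and rises on EB day 3, the 4 largest called rises at each other stage, genes at the 3-fold limit, the 6 smallest rises in Pcgf2 KO and Pcgf2; other members were named after their values were seen, to describe each role. The lists were the Nodal pathway, primitive streak, formative and primed epiblast, Wnt targets, ERK targets, p53 targets, naive pluripotency, visceral endoderm, trophectoderm, neural, blood and endothelium, germ cell and 2-cell-like. Replicate numbers did not pair the libraries: of 28 pairs of groups, 1 had deviations correlated above 0.1. Promoters come from RefSeq (GRCm38.p6).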

Additional observations from a re-analysis of the deposited data

Results flagged for a closer look

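The rise from ESC to EB day 3 differed between Pcgf2 KO and WT, by the contrast of the differences. It was smaller in Pcgf2 KO for 40 members (61.5%, against 31.1% of all genes tested). It was larger for 5 (7.69%, against 8.54%), a share no higher than that of all genes. The 5 largest differences in each direction are given here. The values are the rise in Pcgf2 KO minus the rise in WT, on the log2(TPM + 1) scale, from limma with Benjamini-Hochberg adjustment over 17938 genes. The rise was smaller in Pcgf2 KO for Kif1a (-2.63, adjusted p = 4.1e-06), Arhgdig (-2.23, adjusted p = 4.7e-05), Slc27a2 (-2.08, adjusted p = 6.8e-06), Prrg4 (-2.02, adjusted p = 9.8e-05) and Kcnj3 (-1.99, adjusted p = 4.2e-05). Arhgdig and Prrg4 started higher in Pcgf2 KO ESC, Prrg4 at 7.47 and 9.04 TPM against 1.82 and 1.34 TPM in WT. The rise was larger in Pcgf2 KO for Slc7a7 (0.91, adjusted p = 0.00051), Grhl2 (0.82, adjusted p = 0.0017), Gstt2 (0.75, adjusted p = 0.014), Irf1 (0.58, adjusted p = 0.0011) and Rragb (0.43, adjusted p = 0.0096). Slc7a7, Gstt2 and Rragb started lower in Pcgf2 KO ESC, at 21.7 and 24 against 40.7 and 38.6 TPM for Slc7a7, while Irf1 started higher and still rose by more. WT EB day 3 values chose these genes, which favours a smaller rise in Pcgf2 KO.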

How the results depend on the processing

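The direction and size of most counts held under the other settings. Shares of members that moved by over 1.5 times were these: higher on EB day 3, 6.15% of members, became 3.7% with a 5-fold limit for membership. Higher in Pcgf2 KO ESC, 27.7%, became 15.4% with quantile normalization and 15.3% when members were chosen in WT replicate 2 (each WT group then has 1 library, assumed to vary like the Pcgf2 KO groups), and ranged from 18.5% to 23.1% when 1 library was left out. A smaller rise in Pcgf2 KO, 61.5%, became 40% with quantile normalization. A larger rise, 7.69%, became 12.3% with median-of-ratios scaling, 13.8% with quantile normalization and 0% with a 5-fold limit. Lower on EB day 3 ranged from 64.6% (quantile normalization) to 85.2% (5-fold limit) and was 67.7% to 73.8% with 1 library left out. Uncalled log2 differences on EB day 3 changed sign for Abcc4 (0.15 with median-of-ratios scaling, 0.18 with quantile normalization, -0.07 to 0.05 without a library), Pmaip1 (0.13 and 0.18 in the same order, -0.11 to 0.05 without a library), Snrpn (0.05 and 0.00), Prrg4 (0.03 with quantile normalization) and Abcg1 (-0.12 to 0.16 without a library). The cause was not tested. With the replicate block, 78.5% of members were lower on EB day 3 and 61.5% became 60% for a smaller rise. The rule without the WT EB day 8 columns, chosen after seeing the data, gave 77.4% of 93 genes lower on EB day 3 and 58.1% higher on EB day 8.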

Other observations

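Genes that met the same rule in Pcgf2 KO but not in WT, 13 in all, were read as values only. Coch stood at 5.17 and 6.16 TPM on WT EB day 3 and at 28.6 and 31.4 TPM on Pcgf2 KO EB day 3, Capn3 at 0.56 and 0.733 against 15.5 and 14.8 TPM, and Grm6, a glutamate receptor, at 4.34 and 4.9 against 10.3 and 10.3 TPM. Utf1, by contrast, was at 394 and 411 TPM in WT libraries and 403 and 393 TPM in Pcgf2 KO, and it met the rule in Pcgf2 KO through its levels at the other stages. Bcl11a and Sox3 met it while lower on day 3 in Pcgf2 KO, Sox3 at 38.1 and 44.8 against 24.4 and 26.5 TPM. Fgf5, left out of the members by its name, was at 112 ± 2.3 TPM in WT on EB day 3 against 116 ± 3.5 TPM in Pcgf2 KO (SD, n = 2, adjusted p = 0.86 from limma), and Fgf8 at 42.9 and 38.3 against 18.2 and 14.1 TPM (adjusted p = 0.00015).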
